A study of Mus musculus with 18 samples.

Results

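Cyclin-dependent kinase inhibitors are small proteins that hold the kinases of the cell cycle in check, and several of them keep senescent cells out of division. The 7 mouse genes of both inhibitor families, Cdkn1a, Cdkn1b, Cdkn1c, Cdkn2a, Cdkn2b, Cdkn2c and Cdkn2d, were taken by name, and all 7 were found among the 53465 genes counted. Total RNA was sequenced from brown fat (BAT), white fat (WAT) and skeletal muscle (SKM) of C57BL/6J mice of wild-type genotype. The treated arm received quercetin, a plant flavonol, by gavage at 0.125 mg/kg in PEG400 and phosphate-buffered saline, and the other arm received that vehicle alone. There were 18 libraries, 3 for quercetin and 3 for vehicle in each tissue, and the sample names number them 1 to 3 within an arm. The study set quercetin against vehicle in each tissue to see what long-term low-dose treatment did to the transcriptome. The sources used here do not state the age, sex, treatment time or white fat depot of the sequenced mice. No label says whether libraries came from separate or pooled mice, so a p-value reflects how far libraries of an arm differed, which may be technical in part.

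The Cip/Kip family (Cdkn1a, Cdkn1b and Cdkn1c) binds complexes of cyclins with several kinases, above all Cdk2. The INK4 family (Cdkn2a, Cdkn2b, Cdkn2c and Cdkn2d) binds Cdk4 and Cdk6 alone and keeps cyclin D from activating them, so that the Rb protein stays unphosphorylated and E2F target genes stay off. In aged or stressed tissue, Cdkn1a and Cdkn2a transcripts are the usual markers of senescent cells, although fat and muscle consist mostly of cells that have left the cell cycle for other reasons. Only transcripts were measured here, and several of these proteins are controlled by degradation.

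Cdkn1a (ENSMUSG00000023067, chromosome 17, 29090976 to 29100727, GRCm38) encodes p21, the classical transcriptional target of p53. Cdkn1b (ENSMUSG00000003031, chromosome 6, 134920401 to 134925513) encodes p27, an inhibitor of resting cells that Skp2 marks for degradation. Cdkn1c (ENSMUSG00000037664, chromosome 7, 143458339 to 143461050) encodes p57 and is an imprinted gene expressed from the maternal copy. Cdkn2a (ENSMUSG00000044303, chromosome 4, 89274471 to 89294653) has separate start sites for p16Ink4a and for p19Arf, a protein that stabilises p53 through Mdm2. Cdkn2b (ENSMUSG00000073802, chromosome 4, 89306299 to 89311039) encodes p15, which TGF-beta induces, and it lies 11645 bases from Cdkn2a on the same strand. Cdkn2c (ENSMUSG00000028551, chromosome 4, 109660876 to 109667189) encodes p18Ink4c, and Cdkn2d (ENSMUSG00000096472, chromosome 9, 21288410 to 21291407) encodes p19Ink4d, which is unrelated to p19Arf. The exons of Cdkn1c overlap those of an antisense gene, Gm44732, which had 0 counts in all 18 libraries.

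The counts give 1 value per gene, so transcripts from different start sites of Cdkn1a or Cdkn2a are summed. The bases upstream of these starts are shown for that reason, 5′ to 3′ from the RefSeq promoter table of GRCm38.p6, with annotated exon bases left out and searched motifs in capitals. The Cdkn1a windows are chr17:29090729-29090975 and chr17:29093519-29093768 on the plus strand. The Cdkn2a windows are chr4:89294654-89294869 before the p19Arf start and chr4:89282193-89282442 before the p16Ink4a start, both on the minus strand.
Cdkn1a distal start: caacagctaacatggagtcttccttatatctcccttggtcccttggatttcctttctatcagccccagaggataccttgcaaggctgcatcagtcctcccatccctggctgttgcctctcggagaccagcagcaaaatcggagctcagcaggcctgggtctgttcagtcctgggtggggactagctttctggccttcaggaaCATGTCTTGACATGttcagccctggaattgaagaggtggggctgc
Cdkn1a downstream start: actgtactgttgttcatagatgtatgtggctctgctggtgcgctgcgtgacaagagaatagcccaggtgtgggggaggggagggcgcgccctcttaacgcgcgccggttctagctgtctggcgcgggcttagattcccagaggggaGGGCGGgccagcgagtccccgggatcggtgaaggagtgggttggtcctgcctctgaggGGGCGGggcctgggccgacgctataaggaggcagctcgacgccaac
Cdkn2a p19Arf start: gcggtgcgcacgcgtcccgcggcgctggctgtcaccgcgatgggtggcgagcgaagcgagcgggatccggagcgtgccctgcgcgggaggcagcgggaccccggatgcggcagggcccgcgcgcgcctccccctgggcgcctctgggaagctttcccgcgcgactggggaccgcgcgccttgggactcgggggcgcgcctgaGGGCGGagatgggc
Cdkn2a p16Ink4a start: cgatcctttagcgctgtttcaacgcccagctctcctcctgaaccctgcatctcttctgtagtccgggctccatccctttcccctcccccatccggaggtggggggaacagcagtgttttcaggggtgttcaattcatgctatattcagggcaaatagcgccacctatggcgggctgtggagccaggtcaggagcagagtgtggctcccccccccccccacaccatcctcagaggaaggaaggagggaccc

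Capitals in the distal Cdkn1a window mark CATG, any 6 bases and CATG, the cores of the adjoining half-sites of a p53 binding site. Capitals also mark GGGCGG, the GC box that Sp1 binds, in the downstream Cdkn1a window (2 copies) and the p19Arf window (1 copy). Both strands of every window were searched, and no matches overlapped. The CATG pair was found in 161 of 32851 mouse promoters (0.49%) and GGGCGG in 32.7%. The TATA box TATAAA (found in 12.4% of promoters), the FOXO core GTAAACA (3.17%), the E-box CAGCTG (13.0%) and the cyclic AMP element TGACGTCA (1.55%) had no match in these windows. The p19Arf window was 78.7% G and C and the p16Ink4a window 60%, against a median of 52.4% over all promoters. A match describes letters only, and 6 of the 7 genes had an entry in the table.

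Counts summed over genes ran from 8436308 to 12311345 per library. Marker genes put each tissue label where it belongs for most libraries, with exceptions that touch the results below. The brown adipocyte list (10 markers, Ucp1 among them) summed to 3750 CPM (counts scaled to the library total), in BAT quercetin 3 and to 8931 to 14080 CPM in the other BAT libraries. That library held 37030 CPM of the skeletal muscle list, against 6.17 to 5757 CPM in the other BAT libraries. WAT vehicle 2 and 3 and WAT quercetin 1 and 3 held 846 to 4201 CPM of the B cell list and 709 to 1124 CPM of the T cell list. WAT vehicle 1 and WAT quercetin 2 held 1.64 and 4.09 CPM of the B cell list and 12.4 and 14.7 CPM of the T cell list. WAT vehicle 2 had 909.5 CPM of the adipocyte list, against 9997 to 59350 CPM in the other WAT libraries, and 1352 CPM of the muscle list. SKM quercetin 2 had 27450 CPM of the testis, epididymis and seminal vesicle list, which summed to at most 0.349 CPM in the other SKM libraries. That library also had 279.7 CPM of Ucp1, against at most 0.699 CPM in the other SKM libraries. All libraries ran on flow cell H7H2WDSXX except WAT vehicle 1, WAT quercetin 2 and SKM quercetin 3 (H7GKJDSXX), so in WAT the flow cell and the lymphocyte transcripts cannot be told apart. In bulk tissue, fewer cells of a type and less RNA per cell cannot be told apart either.

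To set levels of different genes side by side, counts were scaled by normalised library size and exon length (RPKM). Cdkn1a had the highest median RPKM over the 6 libraries of each tissue, 79.9 in BAT, 24.6 in WAT and 73.6 in SKM. Its share of the summed RPKM of the 7 genes ran from 13.2% in WAT vehicle 2 to 94.0% in SKM vehicle 1. In SKM all 6 libraries of Cdkn1a (33.0 to 429.6 RPKM) lay above all libraries of every other inhibitor.

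In BAT, Cdkn2c followed with a median of 27.8 RPKM, and its range of 20.8 to 42.0 overlapped that of Cdkn1a (30.0 to 192.7). Cdkn2d (11.3), Cdkn1b (8.93), Cdkn1c (3.78) and Cdkn2b (2.25) came next by median RPKM, each overlapping its neighbour in this order, and Cdkn2a was last at 0.0428. The lowest Cdkn2c library (20.76 RPKM) lay just above the highest Cdkn2d library (20.71 RPKM). In WAT, Cdkn1b (21.02), Cdkn2d (19.5) and Cdkn2c (16.8) overlapped each other and Cdkn1a. Cdkn2b (4.62), Cdkn2a (3.95) and Cdkn1c (2.24) formed a lower set that also overlapped within itself and lay below all Cdkn2c libraries. In SKM, Cdkn2d (12.9), Cdkn1b (10.2), Cdkn2c (6.50) and Cdkn1c (4.77) overlapped neighbour by neighbour, while Cdkn2b (2.36) lay below Cdkn1c in all libraries and overlapped Cdkn2a (1.01). All levels below are CPM with one normalisation for the 18 libraries.

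**Figure D1:**
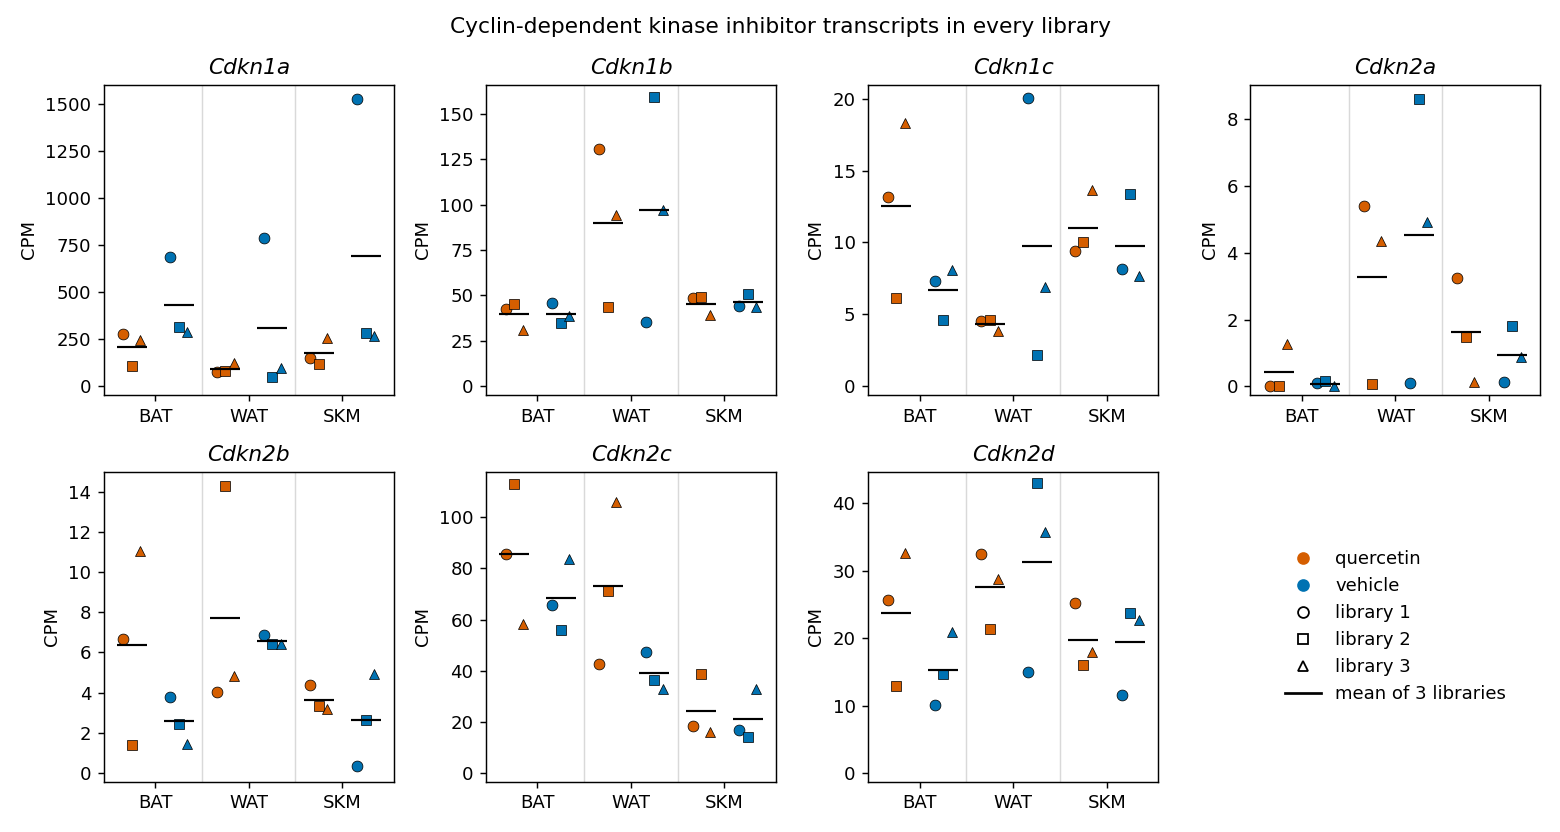
CPM of each inhibitor gene (vertical axes start at 0 and differ between panels) in BAT, WAT and SKM, with quercetin libraries to the left of vehicle libraries in each tissue. Points are single libraries, shapes give the library number, and bars are means of 3 libraries; the highest Cdkn1a point of every tissue is vehicle 1, at 684.8, 789.6 and 1526 CPM.

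With quercetin, no inhibitor gene differed from vehicle past the threshold in any tissue. edgeR's quasi-likelihood test with Benjamini-Hochberg adjustment called 0% of 13274 genes in BAT, 0% of 14919 in WAT and 0% of 13562 in SKM. At an unadjusted p under 0.05 it counted 241, 122 and 406 genes, and DESeq2 called 2, 7 and 0 genes in BAT, WAT and SKM, none of them an inhibitor. Of the inhibitors, 6 entered the test in BAT and 7 in WAT and SKM. Their adjusted p-values in this test ran from 0.910 to 0.9998, and the largest estimate, a log2 fold change of -2.04, was that of Cdkn1a in SKM. In BAT 4 of 6 estimates were higher and the median log2 fold change was 0.49, against 0.05 over all genes tested. In WAT 2 of 7 were higher with a median of -0.18 (all genes -0.01), and in SKM 4 of 7 with a median of 0.14 (all genes -0.03).

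Cdkn1a, the p53 target, was lower with quercetin by estimate in all 3 tissues, and leaving out vehicle 1 moved that estimate more than leaving out any other library of the tissue. In BAT it had 280.1, 106.7 and 246.6 CPM in quercetin 1, 2 and 3, against 684.8, 315.2 and 287.9 CPM in vehicle 1, 2 and 3. The groups did not overlap, quercetin 1 and vehicle 3 being the nearest pair. In SKM it had 150.7, 117.1 and 256.5 CPM with quercetin and 1526, 281.7 and 266.7 CPM with vehicle. Here too all quercetin libraries lay below all vehicle libraries, the nearest being quercetin 3 and vehicle 3. Such separation with lower quercetin values was seen for 3.32% of genes tested in BAT and 3.4% in SKM. In WAT it had 77.2, 79.9 and 123.4 CPM with quercetin and 789.6, 48.0 and 95.1 CPM with vehicle. WAT vehicle 2, the library with few adipocyte transcripts, was the lowest of the 18 and vehicle 1 the highest in WAT.

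The log2 fold change of Cdkn1a, quercetin over vehicle, was -1.02 ± 0.51 (SE) in BAT, with a 95% interval of -2.22 to 0.18. In WAT it was -1.79 ± 1.08 (-4.42 to 0.83) and in SKM -2.04 ± 0.74 (-3.75 to -0.33), each from 3 libraries against 3. The SKM interval is unadjusted and leaves out 0, with an adjusted p of 0.910 in edgeR's quasi-likelihood test. An exact permutation test of 3 libraries against 3 cannot give a two-sided p below 0.1. Without vehicle 1 the estimate was -0.51 in BAT, 0.38 in WAT and -0.67 in SKM, and without quercetin 2 it was -0.69 in BAT. In WAT leaving out vehicle 1 turned the direction. A fit of the WAT libraries of flow cell H7H2WDSXX alone gave 0.45, and it leaves out vehicle 1 as well, along with quercetin 2.

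**Figure D2:**
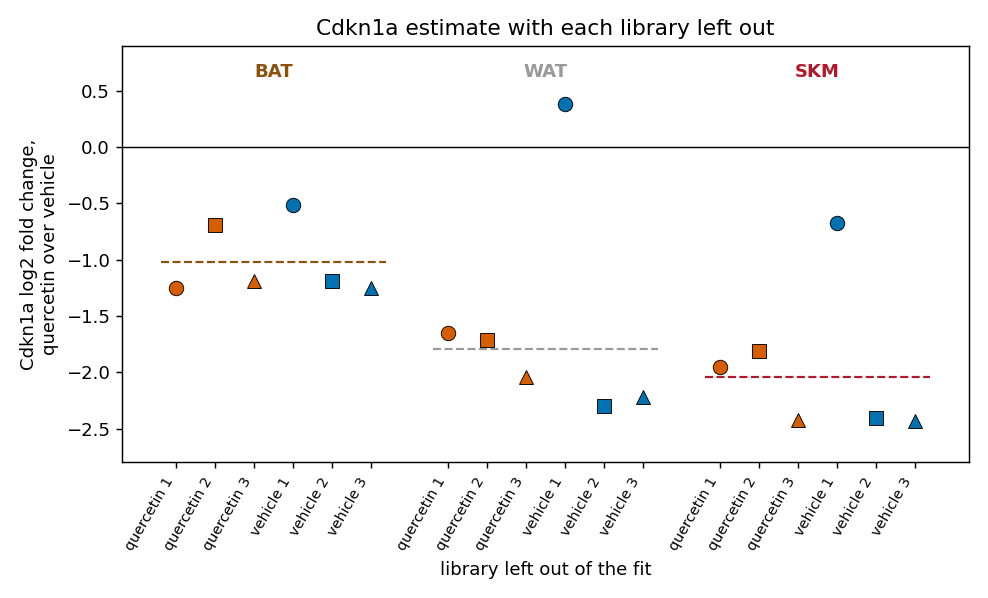
Log2 fold change of Cdkn1a, quercetin over vehicle, refitted with the library named on the horizontal axis left out, with the fit of all 6 libraries as a dashed line. Points are orange for quercetin and blue for vehicle libraries; leaving out vehicle 1 gave the value nearest to 0 in BAT (-0.51) and SKM (-0.67) and the only positive value, 0.38 in WAT.

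Vehicle 1 held 2.17 times the next highest Cdkn1a level in BAT, 6.397 times in WAT and 5.42 times in SKM. The same sample name stands behind the highest value of each tissue, although no label says that the libraries of that name came from 1 mouse. Of the 16388 genes tested across the 18 libraries, 820 (5%) were highest in vehicle 1 of all 3 tissues. For 62 of these (0.378%) the excess was over 2-fold in every tissue, and Cdkn1a was among them. SKM vehicle 1 held 20010 CPM of the atrophying muscle list (10 genes with the ubiquitin ligases Trim63 and Fbxo32), against 1124 to 3429 CPM in the other SKM libraries. WAT vehicle 1 held the most adipocyte (59350 CPM) and endothelial transcripts (4517 CPM, against 441 to 1442 CPM in the other WAT libraries). BAT vehicle 1 had 5757 CPM of the muscle list, second to quercetin 3. The part of any of these in the Cdkn1a values was not tested.

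The p53 target genes other than Cdkn1a (24 listed) were not called in any tissue with quercetin. Vehicle 1 held the highest of 6 values for 10 of the 24 in BAT, 8 in WAT and 15 in SKM. Over all genes it held the highest value for 23% in BAT, 25.9% in WAT and 29.8% in SKM. Btg2, an antiproliferative gene, Ddit4, an inhibitor of mTORC1 signalling, Plk2 and Tnfrsf10b, a death receptor, were highest in vehicle 1 of every tissue. Mdm2, which degrades p53, was highest there in BAT and SKM, and Ccng1, another p53 target, in none. Trp53, the gene of p53 itself, was lowest in vehicle 1 of every tissue, at 14.4, 16.2 and 13.6 CPM in BAT, WAT and SKM. The other libraries had 15.5 to 34.6, 46.5 to 103 and 18.1 to 24.2 CPM. Activity of the p53 protein was not tested. By estimate with quercetin, 10 of 23 measured targets were higher in BAT, 10 of 23 in WAT and 6 of 23 in SKM. The target with the smallest unadjusted p was Phlda3, an inhibitor of Akt, in BAT (633 ± 147 CPM with quercetin and 307 ± 5.89 CPM with vehicle, SD, n = 3 each). In SKM it was Gadd45a, a growth arrest gene (50.9 ± 9.12 and 191 ± 143 CPM), and in WAT Ddit4 (142.5 ± 57.4 and 323 ± 227 CPM). Without vehicle 1 the log2 fold change of Gadd45a in SKM was -1.12 instead of -1.96 and that of Ddit4 in WAT -0.44 instead of -1.23. None of the 3 passed, with adjusted p-values of 0.977, 0.910 and 0.9998 in edgeR's quasi-likelihood test for BAT, SKM and WAT.

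Cdkn1b, the inhibitor of resting cells, stayed within a narrow range in BAT and SKM. It had 42.6, 45.4 and 30.7 CPM in BAT quercetin 1 to 3 and 45.7, 34.8 and 38.8 CPM in BAT vehicle 1 to 3. SKM had 48.5, 49.0 and 39.0 CPM with quercetin and 44.0, 50.8 and 43.8 CPM with vehicle. The highest library was 1.49 times the lowest in BAT and 1.30 times in SKM, counting both arms. The log2 fold change with quercetin was -0.01 in BAT (95% interval -0.60 to 0.58) and -0.06 in SKM (-0.62 to 0.49). In WAT it had 130.5, 43.8 and 94.4 CPM with quercetin and 35.4, 159.4 and 96.9 CPM with vehicle, an estimate of -0.12 (-1.61 to 1.37). The low WAT libraries, quercetin 2 and vehicle 1, are those with few lymphocyte transcripts and the most adipocyte transcripts of that tissue.

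Cdkn1c, the imprinted gene, had 13.2, 6.17 and 18.3 CPM with quercetin and 7.32, 4.62 and 8.11 CPM with vehicle in BAT. The groups overlapped through quercetin 2, and the highest value came from quercetin 3, the library with muscle transcripts. SKM had 9.41, 10.0 and 13.6 CPM with quercetin and 8.15, 13.4 and 7.67 CPM with vehicle. WAT had 4.53, 4.597 and 3.84 CPM with quercetin, inside the vehicle range of 20.1, 2.17 and 6.93 CPM. The log2 fold change was 0.93 ± 0.49 (SE) in BAT, -1.22 ± 0.81 in WAT and 0.15 ± 0.36 in SKM. Without BAT quercetin 3 the BAT estimate was 0.49, and without WAT vehicle 1 the WAT estimate was -0.09. The BAT effect minus the WAT effect, tested as an interaction over all 18 libraries, was 2.07 ± 0.85 (95% interval 0.27 to 3.87), with an unadjusted p of 0.027 and an adjusted p of 1 from edgeR. Without WAT vehicle 1 it was 0.98. Cdkn1c was the only inhibitor with an unadjusted p under 0.05 in the 3 interaction contrasts, which called 0% of 16388 genes each. At an unadjusted p under 0.05, edgeR counted 173, 223 and 231 genes in the BAT minus WAT, BAT minus SKM and WAT minus SKM contrasts, and DESeq2 called 13, 2 and 7.

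Cdkn2a, the gene of p16Ink4a and p19Arf, was scarce. It had 0, 0 and 12 counts in BAT quercetin 1 to 3 and 1, 1 and 0 counts in BAT vehicle 1 to 3, and was too low there for a test of quercetin. A count of 0 allows up to 3 counts, or 0.303 to 0.424 CPM in those libraries, for counting error alone. The 12 counts came from quercetin 3, which held muscle transcripts.

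SKM had 31, 12 and 1 counts of Cdkn2a with quercetin and 1, 15 and 11 with vehicle (3.24, 1.49 and 0.139 CPM against 0.116, 1.80 and 0.888 CPM). The arms overlapped, and the estimate was 0.79 (95% interval -1.62 to 3.20). WAT had 68, 1 and 60 counts with quercetin and 1, 103 and 66 with vehicle (5.401, 0.073 and 4.35 CPM against 0.109, 8.60 and 4.92 CPM). The estimate was -0.47 (-4.23 to 3.29), and leaving out 1 library moved it between -1.06 and 0.31. Each arm of WAT held 1 library with a single count and others with 60 or more, so the spread within an arm was larger than the difference between arms.

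Cdkn2b, the p15 gene beside Cdkn2a, had 6.65, 1.42 and 11.1 CPM with quercetin and 3.81, 2.46 and 1.44 CPM with vehicle in BAT. Its highest value again lay in quercetin 3. WAT had 4.05, 14.3 and 4.85 CPM with quercetin and a close 6.87, 6.43 and 6.41 CPM with vehicle. SKM had 4.39, 3.35 and 3.20 CPM with quercetin and 0.349, 2.65 and 4.93 CPM with vehicle. The log2 fold change was 1.33 (95% interval -0.48 to 3.14) in BAT, 0.24 (-1.19 to 1.67) in WAT and 0.41 (-1.33 to 2.16) in SKM. Without BAT quercetin 3 the BAT estimate was 0.58, and without WAT quercetin 2 the WAT estimate was -0.61.

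Cdkn2c, the p18 gene, had 42.7, 71.2 and 106 CPM in WAT quercetin 1 to 3 and 47.4, 36.4 and 33.0 CPM in WAT vehicle 1 to 3. Only quercetin 1 fell inside the vehicle range, and the estimate was 0.90 ± 0.40 (SE, 95% interval -0.08 to 1.88), or 0.54 without quercetin 3. BAT had 85.7, 112.9 and 58.2 CPM with quercetin and 65.5, 55.8 and 83.9 CPM with vehicle, an estimate of 0.32 (-0.41 to 1.05). SKM had 18.3, 38.6 and 16.01 CPM with quercetin and 16.7, 14.1 and 33.0 CPM with vehicle, an estimate of 0.14 (-0.92 to 1.204). The highest SKM libraries, quercetin 2 and vehicle 3, also held the most adipocyte transcripts of that tissue, 7323 and 14450 CPM against 1644 to 5045 CPM. SKM quercetin 2 also held Ucp1 transcripts (279.7 CPM). The part of these transcripts in the Cdkn2c values was not tested.

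Cdkn2d, the gene of p19Ink4d, had 25.7, 13.0 and 32.6 CPM with quercetin and 10.0, 14.7 and 20.9 CPM with vehicle in BAT. WAT had 32.6, 21.3 and 28.8 CPM with quercetin and 14.9, 43.1 and 35.8 CPM with vehicle. SKM had 25.3, 15.99 and 17.96 CPM with quercetin and 11.6, 23.7 and 22.8 CPM with vehicle. The arms overlapped in every tissue, with log2 fold changes of 0.67 (95% interval -0.38 to 1.71) in BAT, -0.18 (-1.19 to 0.82) in WAT and -0.01 (-0.84 to 0.83) in SKM. Without BAT quercetin 3, the library with muscle transcripts and the highest value, the BAT estimate was 0.31. Vehicle 1 was the lowest of 6 libraries in all 3 tissues, where Cdkn1a was highest.

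**Figure D3:**
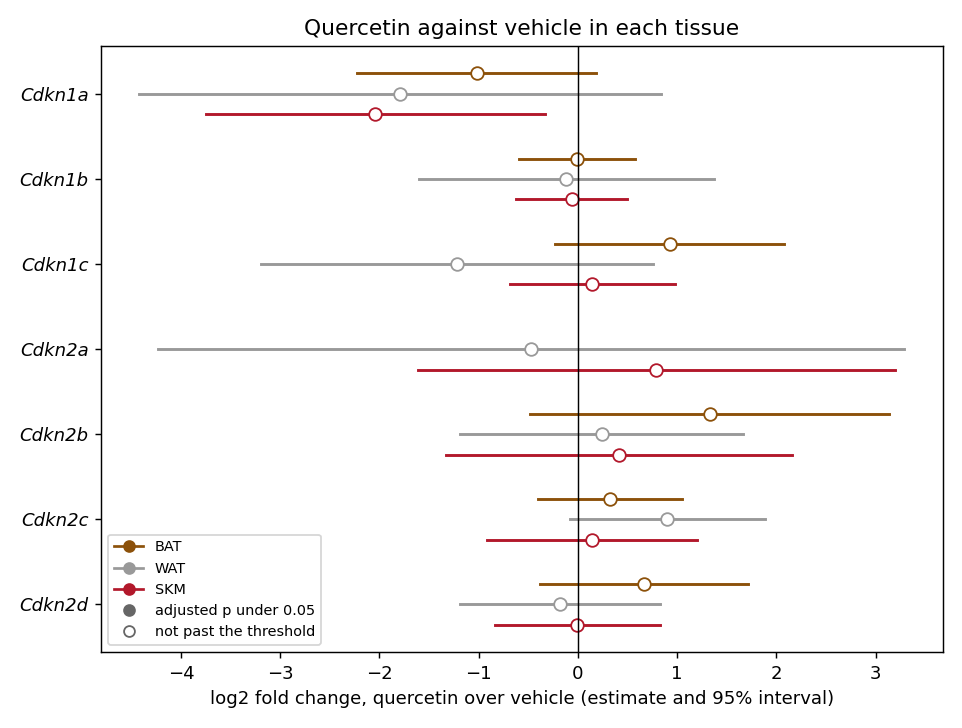
Log2 fold change of each inhibitor, quercetin over vehicle, with its unadjusted 95% interval in BAT, WAT and SKM. Circles are open because no adjusted p passed 0.05; the widest intervals are those of Cdkn2a and of Cdkn1a in WAT, and Cdkn2a was not tested in BAT.

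The genes on which the inhibitors act gave no call with quercetin either. Of the G1 kinase, cyclin and Rb-E2F list (22 genes), 0 of 22 passed in BAT, 0 of 22 in WAT and 0 of 21 in SKM. Of the S phase and mitosis list (25 genes, the output that the inhibitors restrain), 0 of 15 passed in BAT, 0 of 25 in WAT and 0 of 15 in SKM. In WAT all 25 estimates were lower with quercetin, with a median log2 fold change of -1.06 (all genes -0.01). Aurka, a mitotic kinase, had the smallest p of that list in WAT, with 3.94 ± 2.38 CPM with quercetin and 11.1 ± 10.7 CPM with vehicle (SD, n = 3 each). Its log2 fold change was -1.48, or -0.50 without WAT vehicle 2. These libraries differed in lymphocyte transcripts within each arm, and their part in the median was not tested. In BAT 6 of 15 estimates were higher (median -0.36) and in SKM 11 of 15 (median 0.21), so the median did not keep its sign across tissues.

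Regulators of the inhibitors (31 genes found) and other senescence-associated genes (18) had 0 calls in every tissue. In SKM 23 of 31 regulators were lower by estimate (median -0.25, all genes -0.03), and the smallest p was that of Foxo1, a forkhead factor that activates Cdkn1b, with 56.8 ± 4.74 CPM with quercetin and 138.3 ± 70.4 CPM with vehicle. Id1, an inhibitor of helix-loop-helix factors, had 92.4 ± 19.8 and 52.8 ± 25.3 CPM in BAT, and Foxo3 43.1 ± 7.80 and 58.8 ± 2.05 CPM in WAT. Of the senescence-associated genes, Igfbp3, which binds insulin-like growth factors, had the smallest p in both fats. It had 44.5 ± 9.38 CPM with quercetin and 149 ± 71.7 CPM with vehicle in BAT, and 71.8 ± 15.1 and 233 ± 237 CPM in WAT (SD, n = 3 each). In SKM it was Hmgb2, a chromatin protein that senescent cells lose, with 7.93 ± 1.09 and 25.9 ± 26.3 CPM. Without vehicle 1, where Cdkn1a was highest, the log2 fold change of Hmgb2 in SKM was -0.45 instead of -1.76 and that of Igfbp3 in WAT -0.42 instead of -1.75. Foxo1 in SKM was -0.81 instead of -1.33 without that library. Rbl1 in BAT, E2f1 in WAT and Rb1 in SKM, all of the Rb-E2F circuit, had unadjusted p-values of 0.112, 0.123 and 0.057 in edgeR's test. Mki67 in BAT and Pcna in SKM, both genes of dividing cells, had 0.0102 and 0.140. Mki67 was scarce in BAT, with 0.82 ± 0.195 CPM with quercetin and 2.92 ± 1.07 CPM with vehicle (SD, n = 3 each). Its log2 fold change of -1.80 did not pass (edgeR adjusted p = 0.977).

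Between tissues, Cdkn1b, Cdkn2a and Cdkn2c differed past the threshold in the fit without a block, and the other 4 inhibitors did not. With sample names as a block Cdkn1a and Cdkn2d passed too, as given below. The tissue contrasts average both arms, with 6 libraries a tissue, in 1 fit of all 18. BAT over WAT called 2 of 7 inhibitors where 40.3% of 16388 genes were called. BAT over SKM called 1 of 7 against 27.2%, and WAT over SKM 2 of 7 against 50.3%. Calls were therefore common for any gene in these contrasts.

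Cdkn2c was higher in both fats than in SKM. It had 55.8 to 112.9 CPM in the 6 BAT libraries (median 74.7), 33.0 to 106 CPM in WAT (median 45.0) and 14.1 to 38.6 CPM in SKM (median 17.5). All BAT libraries lay above all SKM libraries, as they did for 7.16% of genes tested, while WAT overlapped both other tissues. The log2 fold change was 1.75 ± 0.31 (SE) for BAT over SKM, with an adjusted p of 0.00092 from edgeR. WAT over SKM gave 1.23 ± 0.31, with an adjusted p of 0.0039 from edgeR. BAT over WAT gave 0.52 ± 0.30 and did not pass (edgeR adjusted p = 0.184). The BAT over SKM call held without any 1 of the 18 libraries (1.63 to 2.003). In vehicle libraries alone WAT over SKM was 0.89, with an adjusted p of 0.118 from edgeR.

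Cdkn1b was higher in WAT than in either other tissue by the averaged contrast. It had 30.7 to 45.7 CPM in BAT (median 40.7), 35.4 to 159.4 CPM in WAT (median 95.7) and 39.0 to 50.8 CPM in SKM (median 46.2). BAT over WAT was -1.23 ± 0.31 (SE), with an adjusted p of 0.0063 from edgeR. WAT over SKM was 1.03 ± 0.31, with an adjusted p of 0.0133 from edgeR, and BAT over SKM was -0.21 ± 0.31 (edgeR adjusted p = 0.674). The groups overlapped, because WAT vehicle 1 and quercetin 2 lay at 35.4 and 43.8 CPM and the other WAT libraries at 94.4 to 159.4 CPM. Those 4 high libraries are the ones with B and T cell transcripts. They also held less of the adipocyte list, 909.5 to 24410 CPM against 59350 and 35630 CPM in vehicle 1 and quercetin 2. The part of either in the Cdkn1b values was not tested. Leaving out the 4 high libraries, an alternative chosen after seeing the data, gave estimates of 0.01 for BAT over WAT and -0.22 for WAT over SKM. WAT then had 1 library in each arm, both of flow cell H7GKJDSXX, and these values are given without a test. In vehicle libraries alone neither call held, with -1.37 for BAT over WAT and 1.11 for WAT over SKM (edgeR adjusted p = 0.1001 and 0.130). Without 5 libraries that stood apart by their marker transcripts (BAT quercetin 3, WAT vehicle 2, SKM quercetin 2 and SKM vehicle 1 and 3), also chosen after seeing the data, they were -0.88 and 0.71 (edgeR adjusted p = 0.071 and 0.202). Without WAT vehicle 2 alone, WAT over SKM was 0.73 with an adjusted p of 0.054 from edgeR.

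Cdkn2a showed the same split within WAT. It had at most 1.25 CPM in BAT, 0.073 to 8.60 CPM in WAT and 0.116 to 3.24 CPM in SKM, with medians of 0.0501, 4.63 and 1.19 CPM. BAT over WAT was -4.27 ± 1.28 (SE), with an adjusted p of 0.0152 from edgeR, and -3.83 to -6.85 with 1 library left out. In vehicle libraries alone it was -5.74 and did not pass (edgeR adjusted p = 0.0529). WAT over SKM was 1.63 ± 1.06 and BAT over SKM -2.64 ± 1.27, and neither passed (edgeR adjusted p = 0.212 and 0.139). Without BAT quercetin 3, the library with muscle transcripts and 12 Cdkn2a counts, BAT over SKM was -5.22 and passed (edgeR adjusted p = 0.0343). The 4 WAT libraries with B cell transcripts had 4.35 to 8.60 CPM, and the others 1 count each. Without these 4 the BAT over WAT estimate was 0.99, which rests on WAT libraries with 1 count each and is given without a test. In SKM, where the B cell list summed to at most 6.54 CPM and the T cell list to at most 13.4 CPM, Cdkn2a had 11 to 31 counts in 4 libraries. The part of lymphocyte or adipocyte transcripts in the WAT values was not tested.

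**Figure D4:**
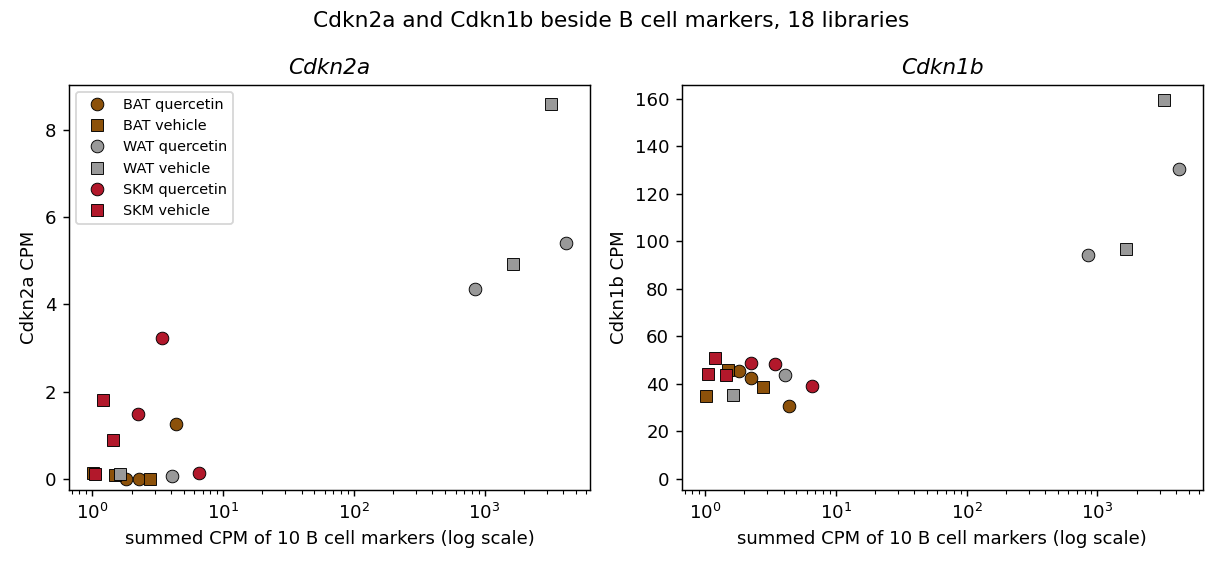
Cdkn2a (left) and Cdkn1b (right) CPM of each of the 18 libraries against the summed CPM of 10 B cell markers on a log axis, circles for quercetin and squares for vehicle, colours for tissue. The 4 WAT libraries with 846 to 4201 CPM of B cell markers had the highest values of both genes, 4.35 to 8.60 CPM of Cdkn2a and 94.4 to 159.4 CPM of Cdkn1b. These 4 also had fewer adipocyte transcripts than the other WAT libraries.

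Cdkn1a did not differ between tissues past the threshold, with 0.82 ± 0.62 (SE) for BAT over WAT, -0.21 ± 0.61 for BAT over SKM and -1.03 ± 0.62 for WAT over SKM. The adjusted p-values from edgeR were 0.308, 0.852 and 0.178 in that order. With libraries of the same sample name as a block, which no label says are of 1 mouse, it passed for BAT over WAT (1.24) and WAT over SKM (-1.19), with adjusted p-values of 0.0174 and 0.0134 from edgeR. Without vehicle 1 of every tissue, also chosen after seeing the data, it was 1.64 for BAT over WAT and -1.45 for WAT over SKM. The libraries left out are those with the highest Cdkn1a of each tissue, so these values are given without a test. Cdkn1a outside vehicle 1 was thus at 48.0 to 123.4 CPM in WAT, against 106.7 to 315.2 CPM in BAT and 117.1 to 281.7 CPM in SKM. In the same fit Cdkn1c was 1.03 for BAT over WAT and -1.30 for WAT over SKM. WAT vehicle 1 also held the highest Cdkn1c of WAT, so these too are given without a test.

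Cdkn1c had 4.62 to 18.3 CPM in BAT, 2.17 to 20.1 CPM in WAT and 7.67 to 13.6 CPM in SKM, and its medians were 7.71, 4.56 and 9.72 CPM. With all libraries its largest contrast was WAT over SKM at -0.68 ± 0.42 (SE, edgeR adjusted p = 0.193). Cdkn2b had 1.42 to 11.1, 4.05 to 14.3 and 0.349 to 4.93 CPM in BAT, WAT and SKM. Its WAT over SKM estimate was 1.19 ± 0.55, with an unadjusted p of 0.048 and an adjusted p of 0.085 from edgeR. Cdkn2d had 10.0 to 32.6, 14.9 to 43.1 and 11.6 to 25.3 CPM in the same tissues, with its largest estimate at -0.63 ± 0.31 for BAT over WAT (edgeR adjusted p = 0.121). With sample names as a block Cdkn2d passed for BAT over WAT (-0.62) and WAT over SKM (0.56), with adjusted p-values of 0.0351 and 0.0412 from edgeR.

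**Figure D5:**
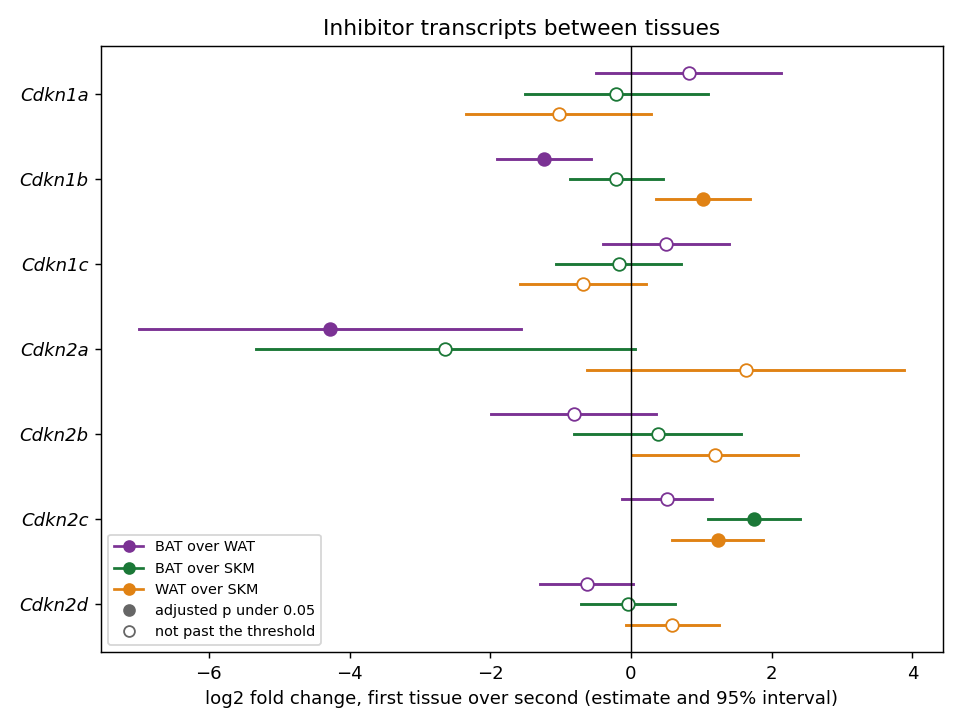
Log2 fold change of each inhibitor between tissues, first tissue over second, with its unadjusted 95% interval. Filled circles passed an adjusted p of 0.05: Cdkn1b and Cdkn2a in BAT over WAT, Cdkn2c in BAT over SKM, and Cdkn1b and Cdkn2c in WAT over SKM.

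Of the lists around the inhibitors, the S phase and mitosis genes were called in 92% of members in BAT over WAT, 12% in BAT over SKM and 88% in WAT over SKM, where 40.3%, 27.2% and 50.3% of all genes were called. Of the S phase and mitosis genes 23 of 25 were called lower in BAT than in WAT, and 25 were lower by estimate (median log2 fold change -3.98, all genes -0.13). In WAT over SKM 22 of 25 were called higher, and 23 were higher by estimate (median 2.98, all genes 0.24). Between BAT and SKM 3 of 25 passed. Mcm5, a subunit of the replicative helicase, had 2.80 ± 1.34 CPM in BAT and 37.1 ± 35.3 CPM in WAT (SD, n = 6 each), and Tyms, thymidylate synthase, had 8.77 ± 3.54 CPM in WAT and 1.84 ± 0.436 CPM in SKM. The SD of Mcm5 in WAT was close to its mean, and the lymphocyte markers named above differed among those libraries. Without the 4 WAT libraries with B cell transcripts the log2 fold change of Mcm5, BAT over WAT, was -1.52 instead of -3.67.

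Of the G1 list 8 of 22 were called in BAT over WAT, all lower, 8 in BAT over SKM (6 higher) and 14 in WAT over SKM (11 higher). These are 36.4%, 36.4% and 63.6% of the list, against 40.3%, 27.2% and 50.3% of all genes. E2f1, which drives S phase genes, had 1.59 ± 0.478 CPM in BAT and 10.9 ± 4.35 CPM in WAT. Ccnd3, a D-type cyclin that the INK4 proteins oppose, had 65.3 ± 16.8 CPM in BAT, 118.7 ± 19.2 CPM in WAT and 26.99 ± 6.29 CPM in SKM and was called higher in both fats than in SKM. Cdk6, a kinase that INK4 proteins bind, had 15.5 ± 4.25 CPM in BAT and 4.25 ± 1.36 CPM in SKM.

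Of the p53 targets 7 of 24 were called in BAT over WAT (4 higher), 13 in BAT over SKM (10 lower) and 14 in WAT over SKM (10 lower). These are 29.2%, 54.2% and 58.3% of the list, against 40.3%, 27.2% and 50.3% of all genes. Ccng1, a cyclin induced by p53, had 148 ± 43.3 CPM in BAT, 75.0 ± 20.3 CPM in WAT and 632 ± 157.5 CPM in SKM. Tigar, a regulator of glycolysis, had 35.8 ± 17.4, 13.0 ± 2.40 and 134 ± 30.3 CPM in these tissues (SD, n = 6 each).

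Of the regulators 10 of 31 were called in BAT over WAT (7 lower), 8 in BAT over SKM (5 lower) and 19 in WAT over SKM (12 higher). The shares of 32.3% and 25.8% in the BAT contrasts lay below those of all genes, and the 61.3% in WAT over SKM above. Foxo4, a forkhead factor, had 74.07 ± 17.98 CPM in BAT, 36.2 ± 3.03 CPM in WAT and 174 ± 36.8 CPM in SKM. Tgfb1, the ligand that induces Cdkn2b, had 31.9 ± 8.73 CPM in BAT, 135 ± 66.4 CPM in WAT and 22.5 ± 3.70 CPM in SKM and was called lower in BAT than in WAT and higher in WAT than in SKM. Without the 4 WAT libraries with B cell transcripts Tgfb1 was -1.04 instead of -2.07 for BAT over WAT and 1.54 instead of 2.58 for WAT over SKM (log2 fold changes). Of the other senescence-associated genes 6 of 18 were called lower in BAT than in WAT, and 16 were lower by estimate. In BAT over SKM 3 were called (2 higher) and in WAT over SKM 11 (10 higher). These are 33.3%, 16.7% and 61.1% of the list, against 40.3%, 27.2% and 50.3% of all genes. Glb1, the lysosomal beta-galactosidase, had 24.0 ± 4.49 CPM in WAT and 6.02 ± 2.56 CPM in SKM.

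Genes whose log2 CPM ran most like that of an inhibitor over the 18 libraries are given as a description, since the libraries share tissue, depth and mixed-in cells. Pearson's r with Cdkn1a was 0.919 for Bcl2l1, which encodes the survival protein Bcl-xL, and 0.915 for Pla2g12a. With the tissue mean taken off, Gm10406 (0.944) and Ttll11 (0.941) came first. Pla2g12a, Gm10406 and Ttll11, but not Bcl2l1, are among the 62 genes over 2-fold highest in vehicle 1 of every tissue. The vehicle 1 libraries are thus among the points behind their likeness. Cdkn1b ran closest to Trbv3, a T cell receptor segment (0.965), and Mbd4, a DNA repair glycosylase (0.962). With the tissue mean off, 5730488B01Rik (0.952) and Trbv3 (0.951) were the closest to Cdkn1b. Both were scarce, at no more than 2.09 and 5.01 CPM in any library. Cdkn2a ran closest to Stk26 (0.931) and Cd82, a tetraspanin (0.926), and within tissues to Pacsin1 (0.930) and Gpr65 (0.917).

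Cdkn2c ran closest to Shpk (0.943) and Spaca1 (0.938) over all libraries, and within tissues to Angptl8 (0.860), a hormone of liver and fat, and Gys2 (0.853), the glycogen synthase of liver. Cdkn1c ran closest to Nenf (0.871) and Myh7b (0.836), and within tissues to the muscle chaperone gene Unc45b (0.897) and Hpn (0.889). Its BAT library with muscle transcripts is among the points behind that likeness. For Cdkn2b these were Gm14150 (0.900, at most 1.75 CPM) and Rps6ka4 (0.888), and within tissues Sema6c (0.907) and Rps6ka4 (0.901). For Cdkn2d they were Rnaseh2a, a subunit of RNase H2 (0.914), and A530010L16Rik (0.888), and within tissues the proteasome activator gene Psme1 (0.904) and Gnb4 (0.893).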

How the data were processed

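RNA of 18 libraries was counted per Ensembl gene by the authors, and the deposited values are raw counts without normalisation. The tools named per the submitters' processing notes are HTSeq, HISAT2 and DESeq2, and the build is mm10; the strand setting is not given in the sources used here. Symbols came from the GENCODE annotation of GRCm38 (53360 of 53465 identifiers matched). Reads outside genes (2.53 to 9.11%) and ambiguous reads (6.47 to 9.84%) were left out of library sizes. No 2 replicates were close enough to be copies, since chi-square over degrees of freedom was at least 27.0.

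Quercetin was tested against vehicle within each tissue with edgeR 4.0.16 (TMM, filterByExpr at its settings of 10 for the count and 15 for the total, quasi-likelihood F test, two-sided). Tissues and differences between effects were tested in 1 fit of all 18 libraries. P-values were adjusted by Benjamini-Hochberg over all genes, with a threshold of 0.05. CPM use TMM factors of all libraries, and likeness used a prior count of 2. Calculations were tested on simulated data. DESeq2 1.42.0, other normalisation and filters, a replicate block and left-out libraries were alternatives.

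The members and lists were chosen with earlier results of these data known. Named genes were the members, the list genes with the smallest p in each comparison (up to 2 per direction among those called, otherwise 1) and the 2 most alike genes of each member. Not all list genes taken by this rule are printed, and none for the interactions. Columns of no sample numbered 0.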

Additional observations from a re-analysis of the deposited data

Results flagged for a closer look

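Of 21 sets of a member and a tissue (6 libraries each), 6 held 1 library past Dixon's 95% limit of 0.625. The value compared was the gap to the next library over the range of the set. That limit lets about 1 in 20 sets pass by chance for normal values of 1 population. The values here were unlogged CPM of both arms, so that rate may not hold and the 6 sets are a description only. Cdkn1a was far above the other libraries in vehicle 1 of BAT (684.8 CPM), WAT (789.6 CPM) and SKM (1526 CPM). The same WAT library was far above the rest for Cdkn1c, at 20.1 CPM. Cdkn2a stood apart in BAT quercetin 3, at 1.25 CPM, the library with 37030 CPM of muscle markers. Cdkn2b stood apart in WAT quercetin 2, at 14.3 CPM, a library of flow cell H7GKJDSXX that held 4872 CPM of the fibroblast and adipocyte progenitor list, against 503 to 2146 CPM in the other WAT libraries. The part of these values in the results was not tested.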

How the results depend on the processing

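Depth limits Cdkn2a most, with at most 12 counts in a BAT library. Of the member values under settings other than leaving out 1 library, 370 kept direction and side of the threshold and 38 changed sign. With the direction kept, 8 passed only then and 6 no longer passed. A call lost with a change of sign was counted among the 38, so the 6 are not all the calls lost. No member passed with quercetin under any setting tried, and the cause of the changes below was not tested. Genes called with quercetin were 2 in BAT and 7 in WAT by DESeq2 and 32 in SKM without a filter. With 1 library left out the BAT count ran from 0 to 1, the 1 being without BAT quercetin 3. DESeq2 called 13, 2 and 7 genes for the differences of effects (BAT minus WAT, BAT minus SKM, WAT minus SKM). In vehicle libraries alone, BAT over WAT called 1442 genes, BAT over SKM 871 and WAT over SKM 3091, with 0 members in BAT over WAT and in WAT over SKM. Cdkn1c was then -0.567 for BAT over WAT and Cdkn2b -0.0793 for BAT over SKM (log2 fold changes, here and below).

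The following were chosen after seeing the data. Without the 4 WAT libraries with B cell transcripts, WAT had 1 library in each arm, assumed to vary like the other groups; BAT over WAT called 1357 genes and 0 members, and WAT over SKM 4038 genes and 1 member. BAT over WAT was then 0.00725 for Cdkn1b, -0.0664 for Cdkn1c, 0.987 for Cdkn2a and 0.0897 for Cdkn2d, and WAT over SKM -0.217, -3.60 and -0.131 for Cdkn1b, Cdkn2a and Cdkn2d, and -0.0978 for Bbc3. The BAT minus WAT effect was -0.270 and the BAT minus SKM effect -0.0161 for Cdkn1b. The WAT minus SKM effect was -1.39, 0.253, 0.533 and 0.409 for Cdkn1a, Cdkn1b, Cdkn2b and Cdkn2d. Without the 5 libraries that stood apart, 1 member was called in BAT over WAT and 1 in WAT over SKM, and Cdkn1a was 0.265 for BAT over SKM. The BAT minus WAT effect was then -0.288 for Cdkn1b and -3.22 for Cdkn2a, the BAT minus SKM effect -0.675 for Cdkn1a and -2.79 for Cdkn2a, and the WAT minus SKM effect -1.76, 0.655, 0.434 and 0.254 for Cdkn1a, Cdkn1b, Cdkn2a and Cdkn2d. Without vehicle 1 of every tissue, 4 members were called in BAT over WAT and 4 in WAT over SKM, where 8260 and 8888 of 16766 genes were called. Cdkn1a, which was highest in the libraries left out, and Cdkn1c were among these members. BAT over SKM was then 0.192 for Cdkn1a and -0.0875 for Cdkn2b, the BAT minus WAT effect -0.804 for Cdkn1a and the WAT minus SKM effect 0.283 for Cdkn2b.

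The sample numbers were not taken as pairs, since no label says that libraries of 1 number came from 1 mouse. Quercetin and vehicle libraries of 1 number correlated at -0.699 to 0.266 in their deviations from group means. Libraries of 1 name in 2 tissues correlated at -0.136 to 0.298 (median 0.116, against -0.026 and -0.302 to 0.140 for different numbers). Of these, all 9 vehicle pairs were positive and 8 over 0.1, and 5 of 9 quercetin pairs were positive. With the replicate number as a block, Cdkn2b was -0.0291 in WAT and Cdkn2d 0.0173 in SKM with quercetin. With arm and number as a block, 4 members were called in BAT over WAT and 4 in WAT over SKM, where 6319 and 8071 of 16388 genes were called. Cdkn1a (1.24 and -1.19) and Cdkn2d (-0.616 and 0.557) passed as well, and the block changed no other call of a member. Cdkn1a was 0.0450 for BAT over SKM, its BAT minus WAT effect -0.258, and the BAT minus SKM effect of Cdkn1b -0.0266. RLE gave 0.00245 and DESeq2 0.00194 for Cdkn1b with quercetin in BAT, and a fit of all libraries 0.0279 for Cdkn2d in SKM. Flow cell H7H2WDSXX alone, which leaves out WAT vehicle 1 and WAT quercetin 2, gave 0.445 for Cdkn1a and -0.563 for Cdkn2b in WAT.

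With 1 library left out, BAT over WAT called 2 to 5 members (5 without WAT vehicle 1) and BAT over SKM 1 to 2 (2 without BAT quercetin 3, with Cdkn2a). WAT over SKM called 1 to 5 members (1 without WAT vehicle 2, 5 without WAT vehicle 1). All genes called ran from 5383 to 7917, 3463 to 5097 and 7194 to 8843 in these contrasts, of 16878 to 17020 tested. The following estimates crossed 0. With quercetin in BAT, Cdkn1b ran from -0.110 to 0.117. In WAT, Cdkn1a ran from -2.30 (without vehicle 2) to 0.384 (without vehicle 1), Cdkn1b from -0.520 to 0.383, Cdkn2a from -1.06 to 0.312, Cdkn2b from -0.606 to 0.551 and Cdkn2d from -0.514 to 0.0693. In SKM, Cdkn1b ran from -0.120 to 0.0318, Cdkn1c from -0.0425 to 0.437, Cdkn2a from -0.217 to 1.59, Cdkn2b from -0.0882 to 1.26, Cdkn2c from -0.344 to 0.614 and Cdkn2d from -0.257 to 0.160. For BAT over SKM, Cdkn1a ran from -0.489 to 0.460 and Cdkn2d from -0.191 to 0.108. The BAT minus WAT effect ran from -1.41 to 1.30 for Cdkn1a, -0.394 to 0.581 for Cdkn1b and -2.40 to 3.45 for Cdkn2a. The BAT minus SKM effect ran from -0.373 to 1.55 for Cdkn1a, -0.0961 to 0.192 for Cdkn1b, -3.68 to 2.47 for Cdkn2a and -0.338 to 0.636 for Cdkn2c. The WAT minus SKM effect ran from -1.08 to 2.37 for Cdkn1a, -0.515 to 0.459 for Cdkn1b, -1.04 to 0.295 for Cdkn2b and -0.544 to 0.0773 for Cdkn2d.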
